A study of Homo sapiens with 9 samples.

Results

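The collagen and laminin genes were 56 of the 19479 genes that the probes of the array named through a RefSeq accession. They were chosen by their symbols, as every gene for a collagen chain (44 genes, 56 probes) or a laminin chain (12 genes, 21 probes), with antisense transcripts left out. The arrays carried all 56. HEK293 cells, which stem from the kidney of a human embryo, had been infected with a retrovirus carrying a short hairpin RNA and GFP and selected with puromycin, so that each group was a stable mixed population and not a clone. The groups were cells with shRNA 3 (KD3) or shRNA 4 (KD4), both directed against SmcHD1, and cells with the control shRNA NC5 (CTL), so that vector, GFP and drug were shared by all of them. There were 3 arrays a group, biological triplicates by the methods. Whether these came from separate infections is not given in the sources used here, and p-values measure the spread between these arrays.

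Collagens are secreted or membrane-bound proteins whose chains wind around each other in a helix. Fibrillar collagens build the cables of tendon, bone and skin, FACIT collagens coat the surface of such fibrils, collagen IV forms the network of basement membranes, collagen VI forms beaded filaments, and transmembrane collagens stay anchored in the cell surface. Laminins are crosses built from an alpha, a beta and a gamma chain, and they form the other network of basement membranes, which in the kidney underlies tubules and glomeruli. SmcHD1 is a chromatin protein known for keeping genes silent on the inactive X chromosome and in several autosomal clusters.

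Levels are given as log2 signals, the background-subtracted brightness of a probe after quantile normalization over the 9 arrays, and differences are differences of these log2 signals. Tested probes were those that the scanner software marked as well above background on all 3 arrays of 1 or more groups, which left 32276 probes of 26862 genes. Transcripts without a gene name from RefSeq are counted in these 26862 under their own identifiers. Shares over all tested genes therefore include unnamed transcripts, while all members are named genes. A call needed an adjusted p under 0.05 (limma, Benjamini-Hochberg over all 32276 probes) and a fold of at least 1.8, and a gene was counted when any of its probes was called. KD3 and KD4 were compared with the same 3 CTL arrays. Between 75.1% and 79.8% of the probes of an array were well above background, no spot was saturated, and the precision of all values is limited by how many arrays there were. The 3 SMCHD1 probes kept between 49.1% and 51.0% of the CTL signal in KD3 and between 34.4% and 35.2% in KD4.

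All 9 HEK293 genes checked, among them VIM, KRT8, KRT18, NEFL and LHX1, were well above background on all 9 arrays, as the label HEK293 would have it, although the brighter PAX2 probe was called lower, by -2.41 in KD3 and -2.65 in KD4 on the log2 scale, and NEFM by -1.21 and -1.24. INA (-0.84 and -0.61), LHX1 (-0.57 and -0.33) and NEFL (-0.33 and -0.41) were lower by the adjusted p in both, under the fold threshold. Of 6 fibroblast and stromal genes, the cells best known for making collagen, DCN, LUM and PDGFRA were well above background on all 9 arrays and THY1 and FAP on none. The summed signal of these 6 genes, on the linear scale, ranged from 147 to 159 in CTL, from 126 to 159 in KD3 and from 109 to 132 in KD4. PDGFRB was well above background on 3 CTL arrays and on no knock-down array. On its measured signals limma gave an adjusted p of 0.0187 in KD3 and of 0.00153 in KD4. The PDGFRB level in CTL was 1.99-fold over a floor in KD3 and 2.54-fold over it in KD4. This floor was set on each array at the dimmest signal still well above background, or at the PDGFRB signal itself where this exceeded it. Signals of other probes up to 4.04 were not well above background on the array KD4_1, so these folds are not strict lower bounds. Of 5 endothelial genes PECAM1 was on no array and VWF and CDH5 were on all 9, and all 3 leukocyte genes (PTPRC, CD14, CD3E) were on all 9, with summed signals from 194 to 208 in CTL, 156 to 184 in KD3 and 172 to 189 in KD4 for the endothelial genes, and from 351 to 431, 388 to 411 and 391 to 456 for the leukocyte genes. Each marker gene was taken by its brightest probe, and PTPRC and DCN also had dimmer probes that were not well above background on all 9 arrays. VWF was lower by -0.82 and -0.69, under the fold threshold, and PDGFRA by -0.49 in KD4. The part of these genes in the collagen and laminin values was not tested. In such bulk RNA, fewer cells of a kind and less RNA per cell cannot be told apart.

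Many of these genes gave a signal over background. In CTL 43 of the 56 genes were detected, that is, had a probe well above background on all 3 arrays, and in KD3 and in KD4 42 were. Of their 77 probes 58 were tested, beside 32276 of the 42405 probes on the array, so the count is not read as a trait of these genes. The leukocyte genes passed the same mark, so that detection means signal over background only. The 13 genes detected in no group were the fibrillar COL1A2, COL2A1, COL3A1, COL5A3 and COL11A1, the collagen VI chains COL6A3, COL6A5 and COL6A6, the FACIT collagen COL22A1, the transmembrane COL17A1, and COL15A1, COL28A1 and LAMB4. COL1A1, which pairs with the COL1A2 chain in the common form of collagen I, was detected on all 9 arrays, with means of 9.44 in CTL, 9.07 in KD3 and 9.45 in KD4. All 6 collagen IV genes and all 5 laminin alpha genes were detected in all groups.

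**Figure D1:**
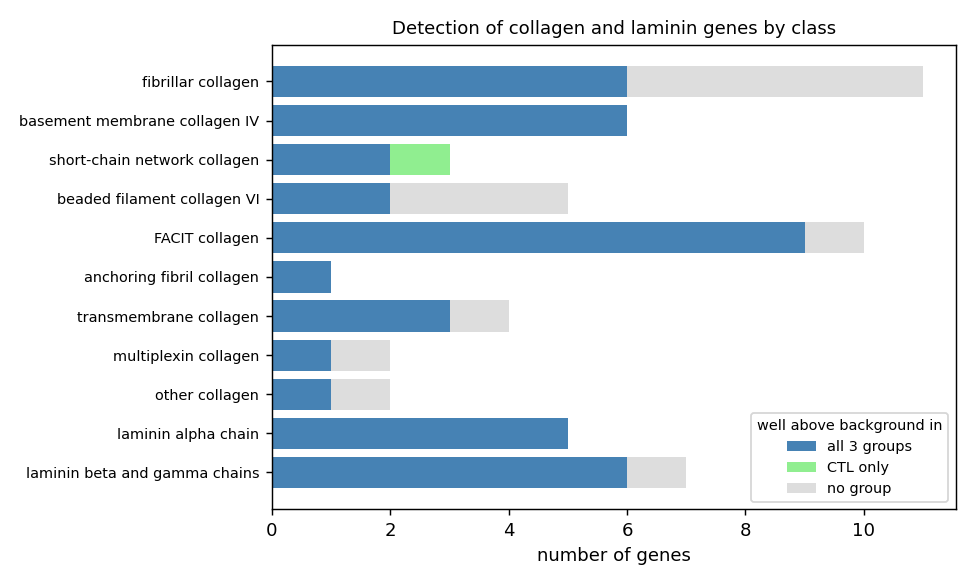
Number of collagen and laminin genes (x axis) of each class (y axis, the laminin beta and gamma chains as 1 class) with a probe well above background on all 3 arrays of all groups (blue), of CTL only (green) or of no group (grey). Collagen IV and the laminin alpha chains were complete, 5 of 11 fibrillar and 3 of 5 collagen VI genes were undetected, and COL8A2 was the gene detected in CTL only.

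The single change in detection rested on a dim probe. COL8A2, a short-chain collagen of the membrane beneath corneal endothelium, read 4.53, 4.20 and 3.82 on the CTL arrays, 3.86, 4.42 and 3.23 in KD3, and 3.22, 4.07 and 3.94 in KD4. The groups overlapped, 2 of 3 arrays in each knock-down were still well above background, and neither difference passed the test (KD3, adjusted p = 0.523, and KD4, adjusted p = 0.359, by limma).

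Collagen and laminin genes were called lower in both knock-downs, and none was called higher, where 1.24% of all tested genes were in KD3 and 1.57% in KD4. In KD3 6 of the 43 tested genes (14%) were called lower, where 2.43% of all 26862 tested genes were, and in KD4 8 (18.6%) were, where 3.53% of all were. The 6 genes called in KD3, namely COL12A1, COL13A1, COL21A1, COL25A1, COL4A3 and LAMA1, were also called in KD4 (14%, against 1.85% of all genes called lower in both), and KD4 added COL14A1 and COL19A1. The members had 58 tested probes for 43 genes, so that 10 genes, among them COL14A1, COL19A1 and LAMA1, had more than 1 chance of a call (1.35 tested probes a gene, against 1.20 over all tested genes). All called probes were well above background on all 9 arrays.

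Most changes were smaller than 1.8-fold. By the adjusted p alone, 21 of 43 genes were lower in KD3 (48.8%, against 11.3% of all tested genes) and 1 was higher (2.33%, against 10.4%). In KD4 19 were lower (44.2%, against 16%) and 3 were higher (6.98%, against 14.8%). Of these, 17 were lower in both knock-downs (39.5%, against 9.25%). The median log2 difference over the tested probe of each gene that was brightest over all 9 arrays was -0.23 in KD3 and -0.21 in KD4, beside 0.01 and 0.04 over all tested genes, and 33 and 32 of the 43 genes lay below 0.

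**Figure D2:**
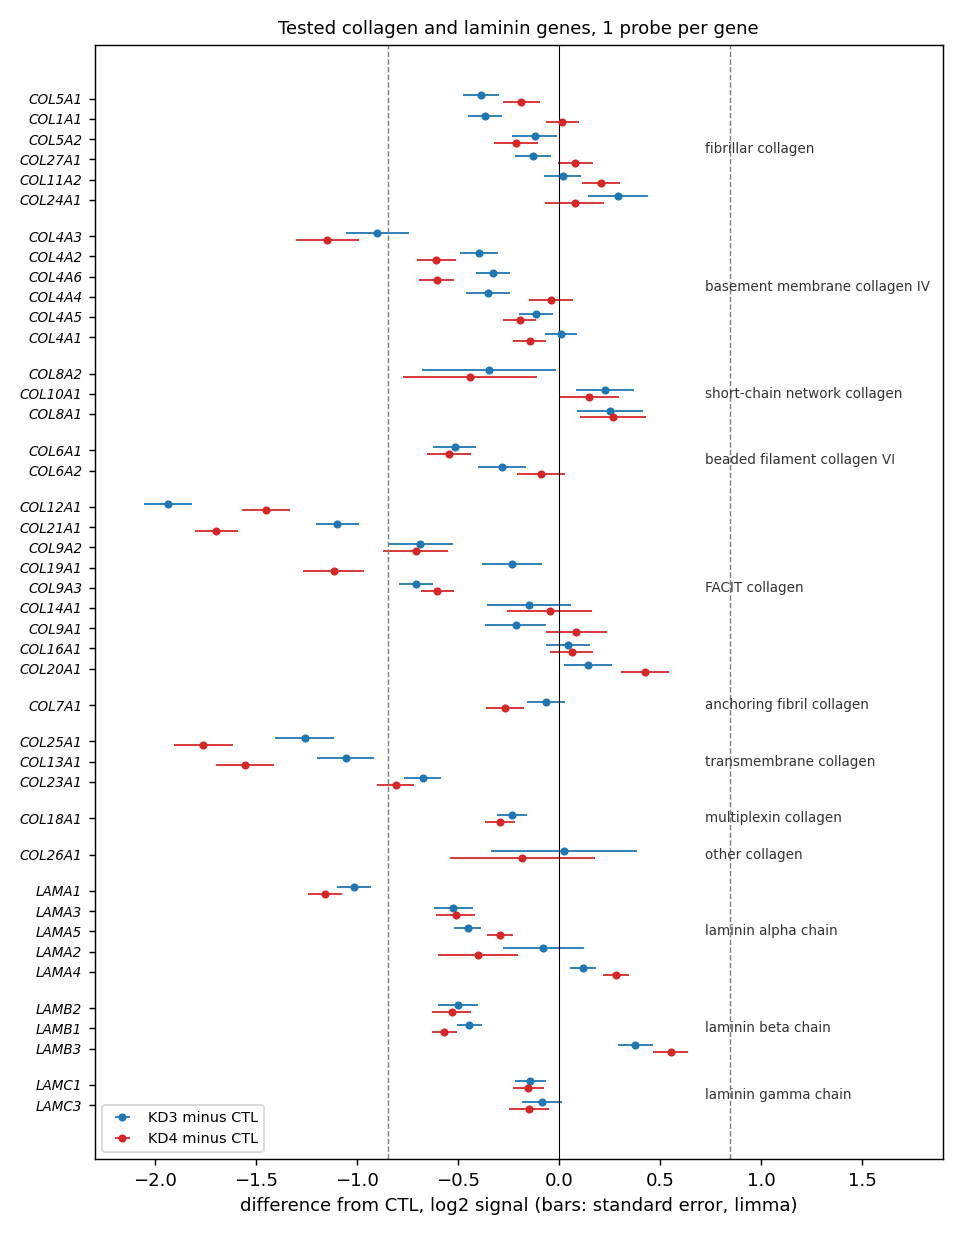
Difference from CTL on the log2 scale (x axis, points, bars for the standard error from limma, n = 3 arrays a group) for the brightest tested probe of each of 42 of the 43 tested genes (y axis), in KD3 (blue) and KD4 (red), by class, with dashed lines at 1.8-fold. Points past the left line belong to COL4A3, COL12A1, COL21A1, COL25A1, COL13A1 and LAMA1 in both knock-downs and to COL19A1 in KD4, and no point lies past the right line. COL14A1 is shown by the probe that was brighter over all 9 arrays, which was not called, while its called probe was the brighter one in CTL.

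FACIT collagens were 9 of the 43 tested genes and had 14 of the 58 tested probes. They made up 2 of the 6 genes called in KD3 and 4 of the 8 called in KD4. COL12A1, a FACIT collagen of tendon and muscle matrix that lies on type I fibrils, read 8.26, 8.57 and 8.47 on the CTL arrays, 6.67, 6.53 and 6.28 in KD3, and 7.01, 6.88 and 7.06 in KD4. The groups did not overlap, and 26.1% of the CTL signal was left in KD3 (log2 difference -1.94, standard error 0.12, limma adjusted p = 2.61e-05) and 36.6% in KD4 (-1.45, standard error 0.12, adjusted p = 9.94e-05). The difference between the knock-downs, 0.49, did not pass (adjusted p = 0.0756). COL21A1, a small collagen of the same class found in vessel walls, read 8.47, 8.62 and 8.57 in CTL, 7.63, 7.43 and 7.30 in KD3, and 6.83, 7.00 and 6.73 in KD4. Its arrays fell into 3 separate ranges, CTL above KD3 above KD4, with log2 differences from CTL of -1.10 in KD3 (adjusted p = 0.000271) and -1.70 in KD4 (adjusted p = 2.61e-05). The difference between the knock-downs, -0.60, passed the adjusted p (limma, 0.028) but not the fold.

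COL14A1, a FACIT collagen of fibril surfaces in skin and tendon, was measured by 2 tested probes that differed. The probe A_23_P216361 read 8.66, 8.59 and 8.53 in CTL, 7.97, 7.99 and 7.79 in KD3, and 6.90, 6.80 and 6.98 in KD4, again 3 separate ranges. Its log2 difference was -0.68 in KD3, under 1.8-fold (limma adjusted p = 0.000921), and -1.70 in KD4 (adjusted p = 7.36e-06). The KD4 mean was under that of KD3 by -1.02 (adjusted p = 0.00109), or by -0.73, under the fold threshold, with normexp background correction. Normexp started from the median spot signal, subtracted the local background, modelled what background was left and added an offset of 50. Such an offset makes the log2 differences of dim probes smaller. The probe A_32_P80850, which was dimmer in CTL (mean 8.21, against 8.59) and brighter over all 9 arrays, since the other fell, read 7.96, 8.32 and 8.34 in CTL, 7.63, 8.41 and 8.14 in KD3, and 7.89, 8.39 and 8.20 in KD4, with overlapping groups. The COL14A1 call therefore holds for 1 of its 2 probes, and the transcripts that each probe reads were not resolved here.

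COL19A1, a FACIT collagen that is scarce in most adult tissues, read 5.36, 5.88 and 5.70 in CTL, 5.59, 5.42 and 5.22 in KD3, and 4.60, 4.36 and 4.62 in KD4 with its brightest probe. KD4 lay below all other arrays (log2 difference from CTL -1.12, limma adjusted p = 0.00106), while CTL and KD3 overlapped (-0.23, adjusted p = 0.325). With normexp background correction the KD4 value was -0.41 and was not called. KD4 lay below KD3 by -0.88 (adjusted p = 0.0242), a call that was lost without any 1 of 5 of the 6 knock-down arrays, the exception being KD3 replicate 3 (adjusted p from 0.0674 to 0.0879). Its other 2 tested probes were dimmer and were not called. A_33_P3304162 had -0.19 in KD4 (adjusted p = 0.635), and A_33_P3304157 was well above background on 2 CTL arrays and on no KD4 array, so that its KD4 difference is not read. Both called genes of the comparison between the knock-downs, COL14A1 and COL19A1, made up 4.65% of the 43 tested members, where 0.283% of all tested genes were called lower in KD4 than in KD3.

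Among the other FACIT genes, COL9A2 and COL9A3, chains of the collagen IX of cartilage fibrils, were lower without reaching 1.8-fold. COL9A3 had log2 differences of -0.71 in KD3 (limma adjusted p = 0.00074) and -0.60 in KD4 (adjusted p = 0.00125), and COL9A2 of -0.69 (adjusted p = 0.0191) and -0.71 (adjusted p = 0.0123). COL9A1, the third chain of the same protein, had -0.22 and 0.08 and passed in neither. COL16A1 did not pass with its brighter probe (0.04 and 0.06), while its dimmer probe was lower in KD3 (-0.62, adjusted p = 0.0173). COL20A1 was higher in KD4 by the adjusted p (0.43, adjusted p = 0.0286) and not in KD3 (0.14, adjusted p = 0.456).

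Each of the 3 tested transmembrane collagens was lower in both knock-downs by the adjusted p, and 2 of them were called. By the adjusted p alone 39.5% of the 43 tested members and 9.25% of all tested genes were lower in both. COL13A1, a collagen of cell adhesion sites and of the neuromuscular junction, read 9.69, 10.03 and 10.19 in CTL, 9.08, 8.98 and 8.67 in KD3, and 8.39, 8.41 and 8.44 in KD4. The groups were separate, with 48.0% of the CTL signal left in KD3 (log2 difference -1.06, limma adjusted p = 0.0015) and 34.0% in KD4 (-1.56, adjusted p = 0.000163). COL25A1, a neuronal membrane collagen needed for motor axons to reach muscle, read 7.12, 7.10 and 6.99 in CTL, 5.91, 5.70 and 5.82 in KD3, and 5.68, 5.11 and 5.14 in KD4. All 6 knock-down arrays lay below the CTL arrays, with log2 differences of -1.26 in KD3 (adjusted p = 0.000687) and -1.76 in KD4 (adjusted p = 0.000101). Normexp background correction brought these to -0.72, no longer a call, and -0.95. COL23A1 was lower by -0.68 in KD3 (adjusted p = 0.00151) and -0.81 in KD4 (adjusted p = 0.000479). Both fell short of the fold threshold of 0.848 on the log2 scale and were not called. The fourth gene of the class, COL17A1 of skin hemidesmosomes, was not detected.

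**Figure D3:**
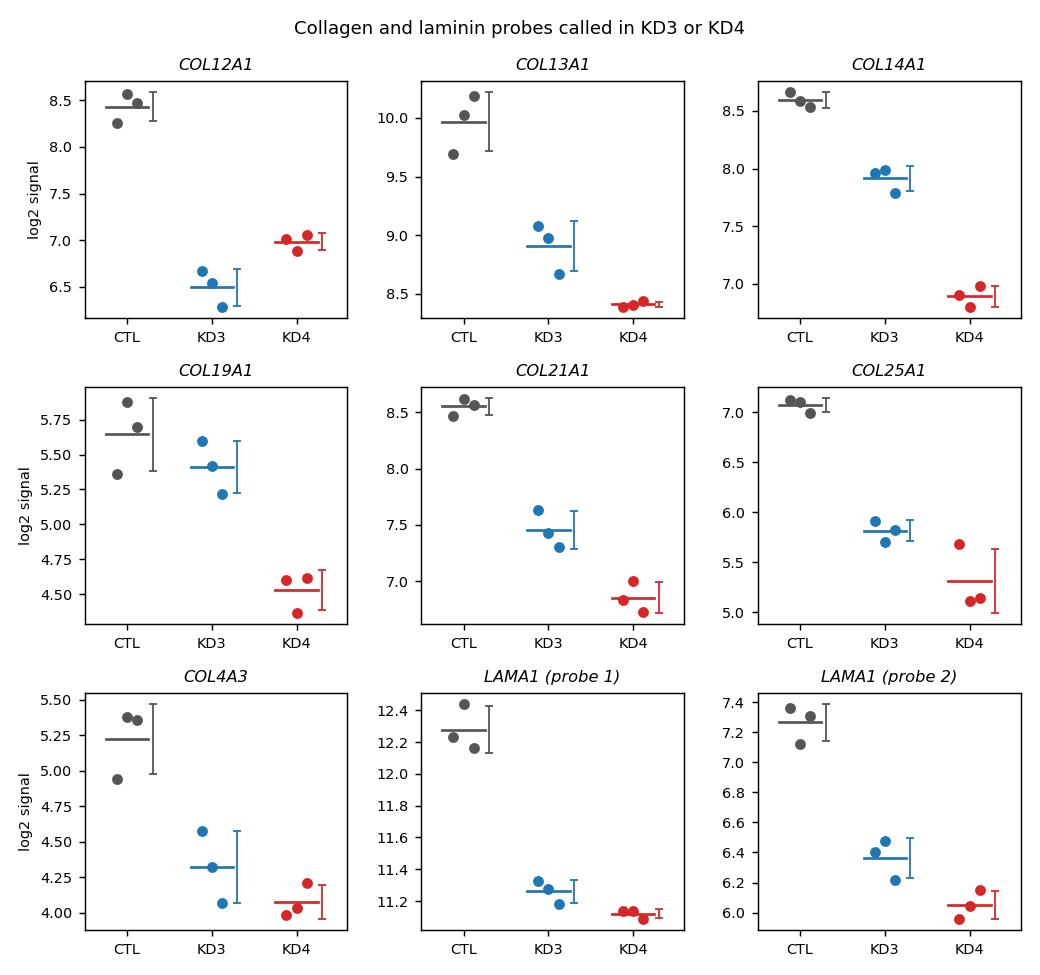
Normalized log2 signal (y axis, a range of its own in each panel) of the 9 called probes on each array (points) of CTL, KD3 and KD4 (x axis), with the group mean (line) and SD (bar, n = 3). All knock-down arrays lay below all CTL arrays except for COL19A1, where KD3 overlapped CTL, and KD4 lay below KD3 on all arrays except for COL12A1, where it lay above, and COL4A3, where they overlapped.

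The stretches upstream of COL12A1 and COL25A1 are shown because these genes, of different classes and chromosomes, were lower in both knock-downs, and because DNA methylation in vertebrates falls on CG dinucleotides, which are in capitals. The sequences are the 250 bases before the RefSeq start on GRCh38.p14, at chr6:75206054-75206303 (minus strand) and chr4:109302659-109302908 (minus strand), written on the strand of the gene.
COL12A1: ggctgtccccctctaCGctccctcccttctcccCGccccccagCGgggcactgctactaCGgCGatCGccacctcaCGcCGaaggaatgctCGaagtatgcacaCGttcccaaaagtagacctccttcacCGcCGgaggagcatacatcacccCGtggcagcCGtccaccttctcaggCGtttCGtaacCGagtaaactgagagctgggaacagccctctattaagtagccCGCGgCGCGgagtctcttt
COL25A1: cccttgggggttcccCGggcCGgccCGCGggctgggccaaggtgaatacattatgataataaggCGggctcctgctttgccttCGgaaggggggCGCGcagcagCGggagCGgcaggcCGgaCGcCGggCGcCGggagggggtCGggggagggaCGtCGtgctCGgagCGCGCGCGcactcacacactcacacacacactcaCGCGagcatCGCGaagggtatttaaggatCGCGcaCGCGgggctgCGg
The COL12A1 stretch held 21 CG dinucleotides and the COL25A1 stretch 32. Of the 35116 such stretches in the RefSeq table, which overlap where starts lie close together, 30.2% held at least 21 and 9.52% at least 32, and the median was 11. COL13A1 had 16, COL19A1 had 6, and the 3 starts listed for COL21A1 had 2, 12 and 4. Over the 6 called genes with an entry the counts ran from 2 to 32 with a median of 14 in 8 stretches, beside a median of 12 in the 55 stretches of all 41 member genes with an entry. The letters GGGCGG (the GC box, searched on both strands) stood in the COL12A1 stretch and not in that of COL25A1, in 58.2% of the member stretches and in 42.6% of all. Methylation was not measured on these arrays.

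Collagen IV genes lie in neighbouring pairs that are read in opposite directions, and in each pair 1 gene was lower in both knock-downs or called while the other passed in neither. COL4A3, a chain of the mature glomerular basement membrane, read 4.94, 5.37 and 5.36 in CTL, 4.57, 4.32 and 4.07 in KD3, and 3.98, 4.03 and 4.21 in KD4. All knock-down arrays lay below CTL, with log2 differences of -0.90 in KD3 (limma adjusted p = 0.00496) and -1.15 in KD4 (adjusted p = 0.00116), on a dim probe. The KD3 value lay close to the fold threshold and was no longer called with the slide as a block (-0.84), without KD3 replicate 3 (-0.77), without CTL replicate 2 (-0.83) or without CTL replicate 3 (-0.83). With normexp background correction the differences were -0.28 and -0.35 and COL4A3 was called in neither, nor was it by the methods' test with Benjamini-Hochberg adjustment (adjusted p of 0.114 and 0.0641).

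The other collagen IV genes were not called. COL4A2, a chain of nearly all basement membranes, read 13.32, 13.13 and 13.29 in CTL, 12.75, 12.99 and 12.79 in KD3, and 12.65, 12.52 and 12.73 in KD4. It was lower by -0.40 in KD3 (limma adjusted p = 0.0205) and -0.61 in KD4 (adjusted p = 0.00219), with no overlap, and COL4A6 likewise by -0.33 (adjusted p = 0.0295) and -0.61 (adjusted p = 0.00141). COL4A1, COL4A4 and COL4A5 passed in neither, with log2 differences of 0.01 and -0.15 for COL4A1, -0.35 and -0.04 for COL4A4, and -0.12 and -0.20 for COL4A5. COL4A4 in KD3 only just missed (adjusted p = 0.0526), with a difference no smaller than that of COL4A6, which passed.

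The difference between the log2 signals of the 2 genes of a pair was then compared on each array. Because it sets 1 probe against another, only its change between groups can be read. For COL4A2 minus COL4A1 it was 3.19, 3.13 and 3.28 in CTL, 2.83, 2.88 and 2.68 in KD3, and 2.76, 2.69 and 2.76 in KD4, so that no knock-down array reached CTL. The mean of the 6 knock-down arrays lay below that of the 3 CTL arrays by -0.43. COL4A6 minus COL4A5 was lower by -0.31 and COL4A3 minus COL4A4 by -0.83, with no overlap in either pair. For COL4A3 minus COL4A4 normexp background correction brought the change to -0.09, and the groups then overlapped. The pairs were set side by side after the values of the single genes had been seen, so these differences are a description and were given no test.

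**Figure D4:**
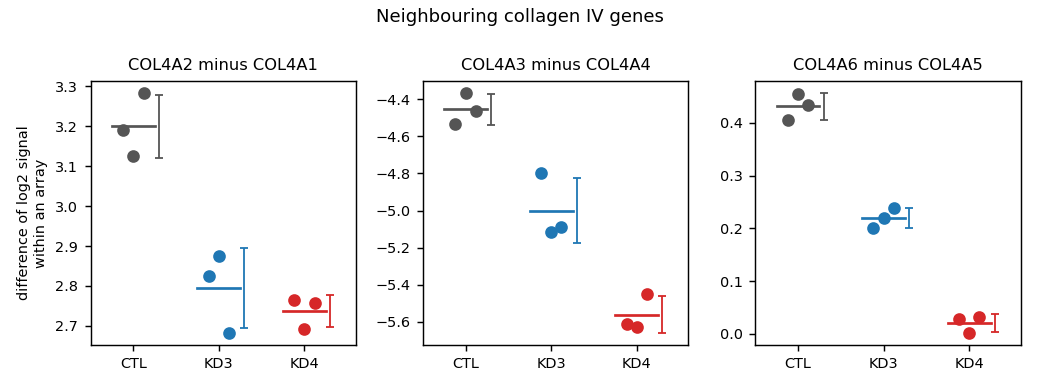
Difference between the log2 signals of the 2 genes of each collagen IV pair on an array (y axis, a range of its own in each panel) for CTL, KD3 and KD4 (x axis), with group means (lines) and SD (bars, n = 3). In all 3 pairs every knock-down array (points) lies below every CTL array, which for COL4A3 minus COL4A4 did not hold with normexp background correction.

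The starts of these pairs lie close together, and the sequences between or before them are shown because the 2 genes of a pair lie next to this DNA and had different values. COL4A1 (minus strand) and COL4A2 (plus strand) start 127 bases apart, and the 126 bases between their starts lie at chr13:110307158-110307283 on GRCh38.p14. The nearer of the 2 listed COL4A6 starts lies 380 bases from that of COL4A5. The listed starts of COL4A4 and COL4A3 lie 419 bases apart. The COL4A4 gene record reaches to chr2:227164488, so that part of the stretch printed before COL4A3 lies within it. For COL4A3 (chr2:227164374-227164623, plus strand) and COL4A5 (chrX:108439588-108439837, plus strand) the 250 bases before the start are given. All are from RefSeq, on the plus strand, with CG dinucleotides in capitals.
COL4A1 to COL4A2: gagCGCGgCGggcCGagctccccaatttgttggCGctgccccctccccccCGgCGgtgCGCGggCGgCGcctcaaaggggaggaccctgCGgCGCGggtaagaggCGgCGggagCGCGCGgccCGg
COL4A3: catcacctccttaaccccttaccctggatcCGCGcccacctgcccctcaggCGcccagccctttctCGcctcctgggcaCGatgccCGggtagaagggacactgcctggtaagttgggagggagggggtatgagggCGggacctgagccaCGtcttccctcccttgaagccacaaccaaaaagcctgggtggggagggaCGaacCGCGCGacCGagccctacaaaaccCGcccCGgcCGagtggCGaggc
COL4A5: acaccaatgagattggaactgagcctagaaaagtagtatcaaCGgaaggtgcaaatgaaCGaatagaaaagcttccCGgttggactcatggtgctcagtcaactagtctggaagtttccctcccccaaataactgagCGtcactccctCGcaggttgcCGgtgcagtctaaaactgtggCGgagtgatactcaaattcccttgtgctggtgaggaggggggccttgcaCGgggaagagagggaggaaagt
The stretch between COL4A1 and COL4A2 held 20 CG dinucleotides in 126 bases, that before COL4A3 held 17 in 250, and that before COL4A5 held 8. The X-linked pair COL4A5 and COL4A6 was not higher in either knock-down.

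Fibrillar collagens showed no call. Of the 6 detected genes COL1A1 and COL5A1 were lower in KD3 by the adjusted p, by -0.37 (limma adjusted p = 0.0164) and -0.39 (adjusted p = 0.0178), but not in KD4 (0.02, adjusted p = 0.904, and -0.19, adjusted p = 0.156). COL5A2, COL11A2, COL24A1 and COL27A1 passed in neither, with log2 differences from -0.13 to 0.29 in KD3 and from -0.21 to 0.21 in KD4 on their brightest probes. Of the other classes, COL6A1 was lower by -0.52 (adjusted p = 0.0106) and -0.55 (adjusted p = 0.00626), and COL6A2, its partner in collagen VI, by -0.28 and -0.09 without passing, although its dimmer probe was lower in KD3 (-0.46, adjusted p = 0.0146). COL18A1, which carries the endostatin fragment of basement membranes, was lower in KD4 (-0.29, adjusted p = 0.0177) and had -0.23 in KD3 (adjusted p = 0.0547). COL7A1, COL8A1, COL10A1 and COL26A1 passed in neither, with differences between -0.27 and 0.27.

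Laminin chains were called for LAMA1 alone. LAMA1, the alpha chain of the laminin of early embryos and of young kidney tubules, read 12.23, 12.44 and 12.16 in CTL, 11.33, 11.28 and 11.18 in KD3, and 11.14, 11.14 and 11.09 in KD4 with its brighter probe. The 3 ranges did not overlap, with 49.4% of the CTL signal left in KD3 (log2 difference -1.02, limma adjusted p = 0.000134) and 44.8% in KD4 (-1.16, adjusted p = 5.21e-05). Its dimmer probe read 7.36, 7.12 and 7.31 in CTL, 6.40, 6.48 and 6.22 in KD3, and 5.96, 6.04 and 6.15 in KD4, and it was called too (-0.90, adjusted p = 0.000503, and -1.22, adjusted p = 8.88e-05). With normexp background correction the dimmer probe had -0.56 and -0.78 and was not called, while the brighter one was.

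The other laminin chains, among them the beta and gamma chains that can join LAMA1, were not called. LAMB1, a beta chain of the classical laminin, read 12.88, 12.78 and 12.85 in CTL, 12.38, 12.40 and 12.40 in KD3, and 12.30, 12.28 and 12.22 in KD4, lower by -0.44 (limma adjusted p = 0.00171) and -0.57 (adjusted p = 0.000384) with no overlap. LAMB2, the beta chain of the mature glomerulus, was lower by -0.50 (adjusted p = 0.00842) and -0.53 (adjusted p = 0.00471). LAMC1, the gamma chain of most laminins, had -0.14 (adjusted p = 0.236) and -0.15 (adjusted p = 0.17). LAMA3 was lower by -0.52 (adjusted p = 0.00667) and -0.51 (adjusted p = 0.00542) and LAMA5 by -0.45 (adjusted p = 0.00198) and -0.29 (adjusted p = 0.0111). LAMA2 (-0.08 and -0.40) and LAMC3 (-0.09 and -0.15 with its brightest probe) passed in neither.

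LAMB3 was the member higher in both knock-downs by the adjusted p (2.33% of the 43, against 7.7% of all tested genes). This beta chain of the epithelial laminin that anchors the epidermis read 6.54, 6.66 and 6.72 in CTL, 7.10, 6.92 and 7.02 in KD3, and 7.30, 7.11 and 7.16 in KD4. The knock-down arrays lay above CTL by 0.38 (limma adjusted p = 0.0164) and 0.55 (adjusted p = 0.00211), below 1.8-fold. LAMA4 was higher in KD4 by its brightest probe (0.28, adjusted p = 0.013), while its other 3 tested probes did not pass and ranged from -0.23 to 0.05.

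The slides of the arrays held all groups, so that each called gene could be compared within a slide, with 1 or 2 arrays a group. For the 6 genes called in both knock-downs the log2 difference from CTL within a slide ran from -0.62 (COL4A3, slide 2) to -1.99 (COL12A1, slide 1) in KD3 and from -0.96 (COL4A3, slide 2) to -1.92 (COL25A1, slide 1) in KD4. COL14A1 in KD4 was at -1.67 and -1.76, and COL19A1 at -1.30 and -0.76. KD4 minus KD3 was -1.10 and -0.97 for COL14A1 and -0.93 and -0.80 for COL19A1. For COL19A1 in KD3, which was not called, the within-slide values took opposite signs, -0.37 and 0.05.

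Genes that make, process, bind or break down collagen and laminin held a further set of calls, all of them lower. Of 58 tested genes of 63 in 5 lists, 5 (8.62%, against 2.43% of all) were called in KD3 and 8 (13.8%, against 3.53%) in KD4. These counts were 1 and 1 with normexp background correction, 1 and 1 by the methods' test with adjustment, and 2 and 5 over the probes well above background on all 9 arrays. Among 17 tested genes for folding and modification, which include the prolyl and lysyl hydroxylases and the chaperone SERPINH1, COLGALT2 was called, in KD4 (-0.88, limma adjusted p = 0.000144) and with -0.49 in KD3 (adjusted p = 0.0036), and the knock-downs differed by -0.40 (adjusted p = 0.0392), under the fold threshold. SERPINH1, which binds newly made collagen, had 0.20 and 0.15 without passing, and P3H2, a prolyl hydroxylase of collagen IV, was lower by -0.66 (adjusted p = 0.000348) and -0.74 (adjusted p = 0.00015).

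Of 11 genes for processing and cross-linking, ADAMTS14, LOXL1 and LOXL3 were called in both knock-downs and TLL1 in KD4. LOXL1, a lysyl oxidase that cross-links elastin and collagen, read 9.64, 9.78 and 9.99 in CTL, 8.78, 8.93 and 8.83 in KD3, and 8.83, 8.78 and 8.88 in KD4. Its knock-down arrays lay below CTL by -0.96 (limma adjusted p = 0.000326) and -0.98 (adjusted p = 0.000242). ADAMTS14, which trims the amino end of fibrillar procollagens, was lower by -1.57 (adjusted p = 0.00191) and -1.94 (adjusted p = 0.000515), with 1 of 3 KD4 arrays well above background. The LOXL3 call rested on a dim probe, well above background on no KD3 array and 1 KD4 array. Its measured CTL level was 2.27-fold that of KD3 (adjusted p = 0.00219), a fold that rests on KD3 signals not well above background. The brighter LOXL3 probe was lower by -0.63 and -0.64, under the fold threshold. TLL1, a protease of procollagen, was called in KD4 by -0.91 (adjusted p = 0.0378), with 1 of 3 KD4 arrays well above background.

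Of 6 genes for breakdown and uptake, MMP2, a gelatinase, was called in KD3 (-1.17, limma adjusted p = 0.00428) and had -0.83 in KD4 (adjusted p = 0.0143), with 2 of 3 arrays of each knock-down well above background. Of 10 partners of the basement membrane, SMOC2 was called in KD4 (-1.25, adjusted p = 0.0105). By the adjusted p alone 6 were lower in KD4 (SMOC2, HSPG2, FREM1, FREM2, FRAS1 and NID2) and 2 higher (PXDN and SMOC1). The shares over all tested genes were 16% and 14.8%. SMOC1 was higher in KD4 with its dimmer probe (0.44, limma adjusted p = 0.00254), while its brighter probe did not pass (-0.06, adjusted p = 0.555). In KD3 HSPG2 was lower and PXDN higher. The brightest HSPG2 probe had -0.70 in KD3 (adjusted p = 0.000748) and -0.79 in KD4 (adjusted p = 0.000322), while its other probes did not pass. The nidogen NID1, which links laminin to collagen IV, had 0.11 and 0.11, and NID2 was lower in KD4 (-0.30, adjusted p = 0.0169) and had -0.08 in KD3 (adjusted p = 0.504). PXDN, the peroxidase that forms the sulfilimine bond of collagen IV, was higher with both of its probes, by 0.73 and 0.75 in KD3 and 0.50 and 0.57 in KD4, below 1.8-fold. Of 14 receptors, the integrin ITGB4 was called in both (-1.51, adjusted p = 9.1e-05, and -1.13, adjusted p = 0.000315) and ITGA1, part of a collagen receptor, in KD4 (-0.87, adjusted p = 0.000872), while ITGB1, the shared beta subunit of collagen receptors, had 0.05 and -0.03.

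The calls were tested with the limma fit over all 9 arrays. By the test that the methods used for pairs of groups, with Benjamini-Hochberg adjustment, 2 member genes were called in KD3 (COL12A1 and COL25A1) and 4 in KD4 (COL12A1, COL14A1, COL21A1 and LAMA1), all lower, and with normexp background correction 4 and 6 were. COL12A1 was called in both knock-downs under either of these alternatives.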

How the data were processed

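Total RNA of HEK293 cells was labelled with Cy3 and hybridized to one-color Agilent arrays, 3 per group. The authors deposited the scanner file of each array, with spot intensity values that Agilent Feature Extraction 10.10 had already background-subtracted, and flags. They also deposited a table of log2 values, quantile normalized (the methods write quintile), used here as an alternative, and its median lay -0.07 from the values here.

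Control spots and flagged outliers were left out (260 to 634 of 58717 spots), the log2 intensity was normalized by quantiles (limma 3.58.1, R 4.3.3) and averaged over repeated spots, and 21 of 42405 probes lacking a value were dropped. The lowest Pearson correlation between replicate arrays was 0.995. Genes were named through RefSeq accessions and the GRCh38.p14 table, for 25422 probes. The array design used an earlier build, so probe coordinates are not given, and printed stretches are those of RefSeq on GRCh38.p14. Group means were fitted with lmFit and eBayes over all 9 arrays. The fit was tested on simulated data with known changes before use.

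The member genes, classes and related lists were chosen with earlier results of these data known. Members called in any comparison were named with all arrays, and detected members with their differences or the range of these. Undetected members were given by name, and related genes where called. Further related genes (SERPINH1, P3H2, HSPG2, FREM1, FREM2, FRAS1, SMOC1, NID1, NID2, PXDN, ITGB1) were chosen after their values were seen. The values of 1 member are not reported here. A gene was represented by the tested probe that was brightest over all 9 arrays. Alternatives were 75th percentile scaling, normexp (offset 50), the authors' log2 values, other filters, the methods' t-test, replicate and slide blocks, and leaving out each array.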

Additional observations from a re-analysis of the deposited data

Results flagged for a closer look

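COL14A1 differed between the knock-downs (limma, adjusted p = 0.00109). The log2 signal was lower in KD4, at -1.02 relative to KD3, on the probe A_23_P216361, on all 3 arrays of each group. COL19A1 differed likewise, by -0.88 (adjusted p = 0.0242). In both genes another tested probe did not pass between the knock-downs, with a log2 difference of 0.10 (adjusted p = 0.825) for COL14A1 and of -0.10 (adjusted p = 0.873) for COL19A1. A further COL19A1 probe was well above background on no KD4 array and is not compared.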

How the results depend on the processing

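The calls of member genes were all lower than CTL under each alternative run. With 75th percentile scaling, the authors' log2 values, no filter, a filter for all 9 arrays, the replicate block or the methods' t-test without adjustment, 6 member genes were called in KD3, 8 in KD4 and 6 in both, and with the slide as a block 5, 8 and 5. The methods' t-test with adjustment called 2 in KD3, 4 in KD4, 1 in both and 0 in KD4 against KD3, and 1 of the related genes in each knock-down. Normexp called 0 members in KD4 against KD3, where COL14A1 moved to -0.73 and COL19A1 to -0.32, and 1 related gene in each knock-down. The filter for all 9 arrays left 2 related genes in KD3 and 5 in KD4, since dim probes were not tested. In KD4 against KD3, 75th percentile scaling, no filter and the replicate block called 1 member in place of 2, losing COL19A1 (adjusted p = 0.0561, 0.0519 and 0.0763 from limma). Replicate numbers shared by the groups did not pair the arrays (correlations of deviations -0.08 to 0.14, 3 of 9 over 0.1, and 5 of 9 arrays matched best with their own number). Leaving out each array gave 5 to 6 members in KD3, 8 to 9 in KD4, 5 to 6 in both and 1 to 2 in KD4 against KD3, and 5 to 6 and 6 to 9 related genes. These counts hide changes of members. Without CTL replicate 1 COL23A1 was gained in KD4, and without CTL replicate 2 COL9A2 was gained in both knock-downs. Without CTL replicate 3 COL2A1, otherwise detected in no group, was gained in both. By the adjusted p alone, 16 to 22 members were lower in KD3 and 18 to 21 in KD4, except with the methods' t-test with adjustment (2 and 7). Without KD3 replicate 3, COL4A3 (-0.77) and the dimmer LAMA1 probe (-0.83) were under the fold threshold in KD3. LAMB3 did not pass in KD3 without KD3 replicate 1 or with normexp. Detection on 2 of 3 arrays, 1 of 3 arrays or by the brightest probe changed the number of detected genes by 3 at most (KD4, from 42 to 45 with 1 of 3 arrays). The signals of dim probes, such as those of COL4A3 and COL19A1, limit the precision of their values.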
